A study of Mus musculus with 6 samples.

Results

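The 7 genes described here encode or control the MHC class II pathway: H2-Aa, H2-Ab1 and H2-Eb1 (antigen-binding chains), Cd74 (the invariant chain), H2-DMa and H2-DMb1 (the peptide editor) and Ciita (the transcriptional coactivator). They were chosen by symbol among the 55450 genes of the deposited table, and all 7 were found. They were followed in 6 RNA libraries of regulatory T (Treg) cells sorted from MC38 tumours, a transplanted mouse colon carcinoma, in C57BL/6 mice. Of these libraries, 3 came from mice whose Treg cells had Tim-3, an inhibitory receptor encoded by Havcr2, and 3 from mice whose Treg cells lacked it. They are called sufficient and deficient below. The allele or driver that removed Tim-3, the age of the mice, the markers used for sorting and the number of mice behind a library are not given in the sources used here. No label says that libraries came from separate mice. The p-values therefore set the group difference only against the variation among these samples, and that variation can be technical.

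Class II molecules are pairs of an alpha and a beta chain that show peptides from the endosome to CD4 T cells. Dendritic cells, B cells and macrophages make them, and mouse T cells, unlike activated human T cells, are generally held to make little or none. The invariant chain escorts new pairs to the endosome, H2-DM swaps the remnant of that chain for a peptide, H2-O restrains H2-DM, and Ciita switches the genes on. Lyz2, a lysozyme of macrophages, monocytes and neutrophils, was set beside the members as a mark of myeloid RNA in a T cell sort.

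Names of the libraries follow the marks in the table's columns: sufficient A1, B1 and dated, and deficient C1, D and dated. The word dated marks the 1 library of each group whose column carries a calendar date. That mark is treated as a possible batch, with the other 4 libraries called undated. Between 11470 and 12681 genes reached 1 TPM, a share of the library's transcripts corrected for gene length, in a library, and the read depth is unknown because TPM keeps no counts. T cell identity was clear in all 6 libraries: Cd3e, a chain of the T cell receptor complex, lay between 8.81 and 9.47 and Foxp3, the Treg lineage factor, between 4.82 and 5.56 on the deposited log2(TPM + 1) scale. Lyz2 set the libraries apart, at 5.91, 8.94 and 2.74 in sufficient A1, B1 and dated and at 9.08, 1.99 and 3.61 in deficient C1, D and dated. Sufficient B1 and deficient C1 were the high libraries, 1 in each group. Results are therefore also given without these 2.

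Class II genes share a promoter layout with an X box and, downstream of it, a Y box holding the letters CCAAT or, on the other strand, ATTGG. RefSeq start-site windows on GRCm38.p6 matched 4 of the 7 members by symbol, H2-Aa, H2-Eb1, H2-DMa and H2-DMb1, and H2-Ab1, Cd74 and Ciita had no entry. The 130 bases before the start are shown for 3 members whose levels moved together across libraries (below), read along the gene's strand, with matches to CCAAT and to a short piece of the X box, ACNGATG, in capitals, both searched on both strands. They lie at chr17:34287824-34287953 (minus strand) for H2-Aa, chr17:34305737-34305866 (plus) for H2-Eb1 and chr17:34153061-34153190 (plus) for H2-DMb1. The RefSeq start of H2-DMb1 lies downstream of the GENCODE start used for its gene bounds below, so 119 of its 130 bases fall inside the gene as annotated there, against 0 for H2-Aa and H2-Eb1.
H2-Aa: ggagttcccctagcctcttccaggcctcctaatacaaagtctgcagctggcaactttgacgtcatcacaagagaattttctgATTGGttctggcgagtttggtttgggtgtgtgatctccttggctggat
H2-Eb1: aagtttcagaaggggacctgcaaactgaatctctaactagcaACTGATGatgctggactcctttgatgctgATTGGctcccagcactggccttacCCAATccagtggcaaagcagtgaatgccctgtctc
H2-DMb1: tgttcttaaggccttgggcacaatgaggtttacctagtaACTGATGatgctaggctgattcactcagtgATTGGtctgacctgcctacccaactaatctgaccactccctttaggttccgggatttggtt
The ATTGG match began 48 bases before the start in H2-Aa, 59 in H2-Eb1 and 61 in H2-DMb1. H2-Eb1 also held CCAAT, 35 bases before its start. The ACNGATG match began 88 bases before the start in H2-Eb1 and 91 in H2-DMb1, upstream of ATTGG in both, and the only one in the H2-Aa window lay on the other strand 232 bases before the start, outside the stretch shown. Matches to the 2 patterns did not overlap. Of the 2 windows of H2-DMa, 1 held ATTGG, 198 bases before its start, and neither held ACNGATG. Over all 32851 windows of 300 bases, 37.4% held CCAAT on either strand, 9.85% held ACNGATG and 3.65% both. Among related genes, H2-Oa, H2-DMb2 and H2-Eb2 had both patterns, H2-Ob had ATTGG alone, and the Lyz2 window had neither. A match describes letters and is not evidence of binding. Because ACNGATG is only a short piece of the X box, a missing match does not show that a promoter lacks an X box.

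The chain genes H2-Ab1, H2-Aa and H2-Eb1 had higher mean values in deficient than in sufficient libraries, but the groups overlapped for each of them and none passed the test. Groups were compared with limma over the 12155 genes with at least 1 TPM in 3 or more libraries, and a gene was called at a Benjamini-Hochberg adjusted p under 0.05. Of the 7 members, 6 were tested and 0 were called, where limma called 25 of all tested genes, which is 0.206%. At an unadjusted p under 0.05, 3 of the 6 members passed (Cd74, H2-DMa and H2-DMb1), against 11.7% of all tested genes, and all 3 were higher in deficient libraries, as were 6.98% of all tested genes. The 6 tested members all had positive log2 fold changes, with a median of 1.57, against a median of 0.09 and 60.1% positive over all tested genes. Deposited values were used as they stand. In bulk libraries, more cells with a transcript and more transcript per cell cannot be told apart.

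H2-Ab1 (ENSMUSG00000073421.6, GRCm38 chromosome 17, 34257689 to 34269419, plus strand), the beta chain of the I-A molecule, stood at 6.48, 8.29 and 5.16 in sufficient A1, B1 and dated, and at 9.60, 7.23 and 7.85 in deficient C1, D and dated, in log2(TPM + 1). Deficient C1 was highest and the sufficient dated library lowest, and sufficient B1 lay above 2 of the deficient libraries. The means were 6.64 ± 1.58 and 8.23 ± 1.23 (SD, n = 3 each), a log2 fold change of 1.58 ± 0.82 (SE, 95% interval -0.32 to 3.48, limma adjusted p = 0.499). On the linear scale the same gene ran from 34.6 TPM in the sufficient dated library to 773 TPM in deficient C1.

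H2-Aa (ENSMUSG00000036594.15, chromosome 17, 34282744 to 34287823, minus strand), the alpha chain that pairs with H2-Ab1, had 4.54, 7.18 and 3.15 in sufficient A1, B1 and dated, and 8.36, 5.29 and 5.87 in deficient C1, D and dated. Its order of libraries was that of H2-Ab1. The log2 fold change was 1.55 ± 1.08 (SE, 95% interval -0.93 to 4.03, limma adjusted p = 0.6). H2-Aa was below H2-Ab1 in every library, and per TPM of H2-Ab1 there were 0.228 to 0.255 TPM of H2-Aa in 4 libraries but 0.46 in sufficient B1 and 0.423 in deficient C1, the 2 libraries of high Lyz2.

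H2-Eb1 (ENSMUSG00000060586.11, chromosome 17, 34305867 to 34316674, plus strand) encodes the beta chain of the I-E molecule, whose alpha chain gene is defective in C57BL/6 mice. That gene, H2-Ea-ps, was listed at 0 in all 6 libraries. H2-Eb1 had 4.36, 6.58 and 2.54 in sufficient A1, B1 and dated, and 7.76, 6.07 and 6.07 in deficient C1, D and dated. Sufficient B1 alone overlapped the deficient group. The means were 4.49 ± 2.02 and 6.63 ± 0.97 (SD, n = 3 each), and the log2 fold change of 2.14 ± 0.93 (SE, 95% interval 0.00 to 4.28, limma adjusted p = 0.428) was the largest among the members. Deficient D had 0.443 TPM of H2-Eb1 per TPM of H2-Ab1, the highest of the 6 libraries, and the sufficient dated library had the lowest at 0.139. An antisense gene, Gm20513, overlaps H2-Eb1, and without a stated strand protocol their reads cannot be separated. Its close copy H2-Eb2 was listed at 0 in 4 libraries and at 0.67 and 0.29 in sufficient B1 and deficient dated, so few reads went to it.

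**Figure D1:**
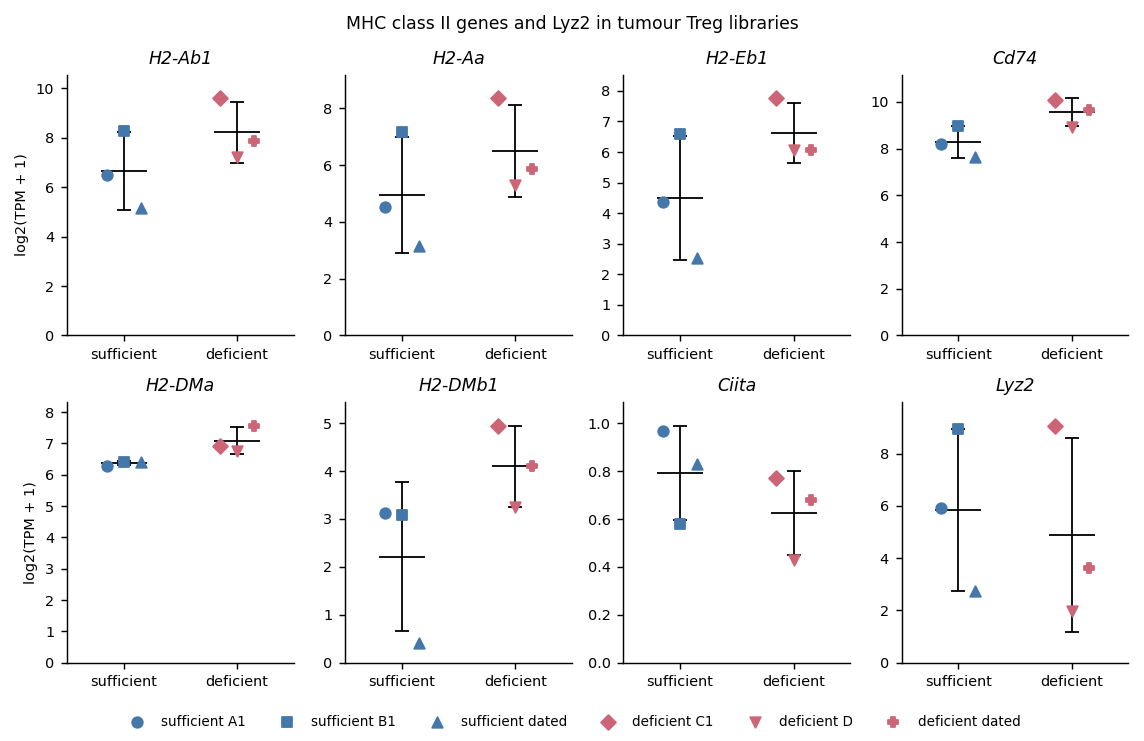
Values of the 7 class II genes and Lyz2 in log2(TPM + 1), 1 point per library with group mean and SD (n = 3) in black. H2-DMa and H2-DMb1 are the members whose groups do not overlap; Ciita stays below 1 throughout, and Lyz2 is near 9 in sufficient B1 (8.94) and deficient C1 (9.08).

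Cd74 (ENSMUSG00000024610.15, chromosome 18, 60803848 to 60812652, plus strand), the invariant chain, was the most abundant member in every library, between 200 and 1099 TPM. It had 8.22, 8.99 and 7.65 in sufficient A1, B1 and dated, and 10.10, 8.93 and 9.67 in deficient C1, D and dated, in log2(TPM + 1). Deficient D and sufficient B1 were nearly level, and every other deficient library lay above every sufficient one. The means were 8.29 ± 0.67 and 9.57 ± 0.59 (SD, n = 3 each). The log2 fold change of 1.28 ± 0.38 (SE, 95% interval 0.40 to 2.17) had the smallest p among the members and still missed the threshold (limma adjusted p = 0.251). Cd74 exceeded H2-Ab1 least in the libraries of high Lyz2, 1.42 times in deficient C1 and 1.62 times in sufficient B1. In the other libraries the ratio was 3.26 to 3.54, except 5.77 in the sufficient dated library.

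H2-DMa and H2-DMb1, the alpha and beta chain of the peptide editor, had all deficient values above all sufficient ones. These were 2 of the 6 tested members, where 10.9% of all tested genes were separated in that direction, 6.73% in the other and 17.6% in either. H2-DMa (ENSMUSG00000037649.10, chromosome 17, 34119541 to 34139101, plus strand) had 6.29, 6.42 and 6.41 in sufficient A1, B1 and dated, against 6.91, 6.77 and 7.57 in deficient C1, D and dated. The sufficient libraries were nearly level (SD 0.07), and the deficient dated library was highest. Its log2 fold change of 0.70 ± 0.22 (SE, 95% interval 0.20 to 1.21) did not pass (limma adjusted p = 0.265). Brd2 overlaps H2-DMa on the opposite strand, so reads of the 2 genes may be mixed. Antisense and pseudogene entries overlap it too, among them CR974462.3 on the same strand as H2-DMa.

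H2-DMb1 (ENSMUSG00000079547.4, chromosome 17, 34153072 to 34160230, plus strand) had 3.13, 3.09 and 0.42 in sufficient A1, B1 and dated, and 4.95, 3.25 and 4.10 in deficient C1, D and dated. The gap between the groups was narrow, from sufficient A1 to deficient D, and the sufficient dated library was far below the rest at 0.34 TPM. The log2 fold change was 1.89 ± 0.76 (SE, 95% interval 0.15 to 3.63, limma adjusted p = 0.387), and 0.99 without the sufficient dated library. H2-DMb2, a close copy of H2-DMb1 to which reads can be misassigned, had 1.89, 4.16 and 1.59 in sufficient A1, B1 and dated and 2.62, 2.47 and 2.79 in deficient C1, D and dated, with a log2 fold change of 0.08. Summed over both copies, the beta chain had 10.4, 24.4 and 2.35 TPM in the sufficient and 35.1, 13 and 22.1 TPM in the deficient libraries in the same order, and the groups then overlapped. H2-DMa exceeded this sum in every library, by 3.39 times in deficient C1 to 35.8 times in the sufficient dated library.

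Ciita (ENSMUSG00000022504.10, chromosome 16, 10480059 to 10528418, plus strand), the coactivator that class II transcription depends on, was below 1 TPM in all 6 libraries and so did not enter the test. It had 0.96, 0.5 and 0.78 TPM in sufficient A1, B1 and dated, and 0.7, 0.35 and 0.6 TPM in deficient C1, D and dated. Its order of libraries differed from that of every other member: sufficient A1 was highest and deficient D lowest. The mean was 0.80 ± 0.20 in sufficient and 0.63 ± 0.17 in deficient libraries (SD, n = 3 each) in log2(TPM + 1), a difference of -0.17. Dexi overlaps Ciita on the opposite strand.

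The chain genes moved together across the 6 libraries and H2-DMa less so. As a description over 6 libraries that share a table and a scaling, Pearson's r was 0.989 between H2-Aa and H2-Ab1, 0.976 between H2-Eb1 and H2-Ab1, 0.939 between Cd74 and H2-Ab1 and 0.896 between H2-DMb1 and H2-Ab1, but 0.443 between H2-DMa and H2-Ab1. Summed TPM of the 7 members was 515, 1151 and 332 in sufficient A1, B1 and dated, and 2564, 857 and 1374 in deficient C1, D and dated. The 8 non-member genes whose pattern was most like the mean of the 6 tested members, each gene standardised, were B3gnt3 (r = 0.985), Pex10 (0.984), Itga2 (0.982), Rtca (0.981), Usp5 (0.980), Atg16l1 (0.976), Ccl25 (0.973) and Immp2l (0.967). They include a glycosyltransferase (B3gnt3), a peroxisome biogenesis factor (Pex10), an integrin chain (Itga2), a deubiquitinase (Usp5) and an autophagy protein (Atg16l1), and none of them was called between the groups. Because these 8 were picked for the highest r over only 6 libraries, values this high can arise from the picking alone. Their log2 ranges over the libraries were 0.29 (Rtca) to 1.60 (B3gnt3), against 1.27 (H2-DMa) to 5.22 (H2-Eb1) for the tested members. The r of Lyz2 with the same mean was 0.512. Lyz2 was not picked by its r, so its value cannot be compared with those of the 8 genes.

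Set beside Lyz2, the chain genes were highest in the library of highest Lyz2 within each group. The pairs named here were chosen after the values were seen, and no test was made on them. Within the sufficient group, B1 had 86.2 times the Lyz2 TPM of the dated library, 18.2 times its H2-Aa, 19.7 times its H2-Eb1, 9.03 times its H2-Ab1, 2.54 times its Cd74 and 1.01 times its H2-DMa. Within the deficient group, C1 had 182 times the Lyz2 of D, 8.58 times its H2-Aa, 5.18 times its H2-Ab1, 3.26 times its H2-Eb1, 2.26 times its Cd74 and 1.1 times its H2-DMa. In both pairs the ratio was larger for Lyz2 than for any member. H2-DMa was nearly level in these pairs, but within the deficient group it ran from 108 TPM in D to 189 TPM in the dated library.

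Between the groups, deficient C1 and sufficient B1 had nearly equal Lyz2 (ratio 1.1). Deficient C1 had 2.47 times the H2-Ab1 of sufficient B1, 2.27 times the H2-Aa, 2.28 times the H2-Eb1 and 2.17 times the Cd74. This pair was level in Lyz2 but not in the myeloid markers as a whole. The 16 markers other than Cst3 (below), Lyz2 among them, summed to 1939 TPM in deficient C1 and 1139 TPM in sufficient B1. The deficient dated library had 1.97 times the Lyz2 of the sufficient dated one and 6.65 times its H2-Ab1, 13.8 times its H2-Eb1 and 4.08 times its Cd74. Deficient D had the lowest Lyz2 of all, 0.0499 times that of sufficient A1. In the same pair it had 1.69 times the H2-Ab1, 1.71 times the H2-Aa, 3.39 times the H2-Eb1, 1.63 times the Cd74, 1.39 times the H2-DMa, 1.1 times the H2-DMb1 and 0.365 times the Ciita. TPM of H2-Ab1 per TPM of Lyz2 was 1.49, 0.638 and 6.09 in sufficient A1, B1 and dated, and 1.43, 50.4 and 20.5 in deficient C1, D and dated. The 2 highest ratios were both deficient, while deficient C1 lay among the sufficient libraries.

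**Figure D2:**
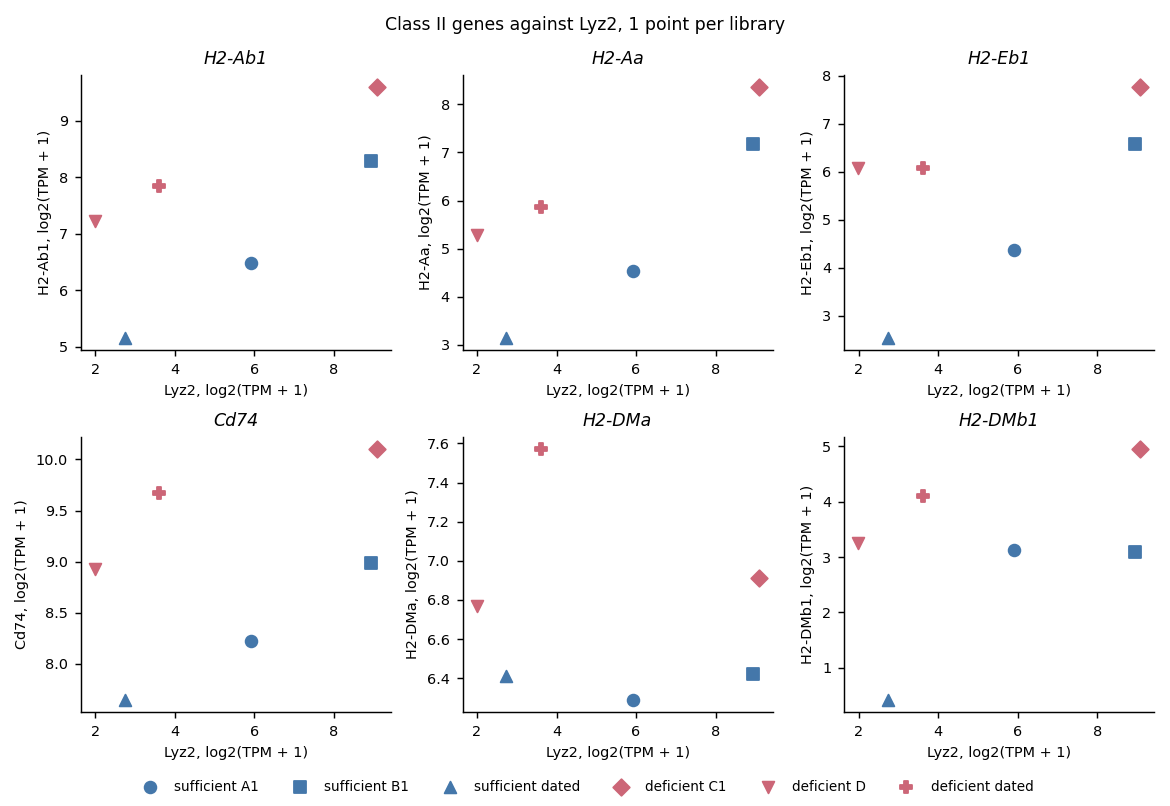
Each class II gene (vertical axis) against Lyz2 (horizontal axis), both in log2(TPM + 1), 1 point per library, blue for sufficient and red for deficient; axes do not start at 0. At the 2 highest Lyz2 values, H2-Ab1 is 9.60 in deficient C1 and 8.29 in sufficient B1.

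Lyz2 itself did not differ detectably between the groups (log2 fold change -0.97 ± 1.98 SE, 95% interval -5.54 to 3.59, limma adjusted p = 0.882), and its interval is wide. Without sufficient B1 and deficient C1, the log2 fold changes of the members were 1.72 for H2-Ab1, 1.74 for H2-Aa, 2.62 for H2-Eb1, 1.36 for Cd74, 0.82 for H2-DMa and 1.90 for H2-DMb1, about as large as with all 6 libraries. In that fit limma called 0 of 12155 genes (0%), members included, while 5 of the 6 members and 6.15% of all genes had an unadjusted p under 0.05.

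With the Lyz2 level of each library as a covariate, a fit added after the data were seen, limma called 2 of the 6 members and 0.156% of the 12154 genes tested. H2-Ab1 then had a log2 fold change of 1.97 ± 0.24 (SE, 95% interval 1.42 to 2.53, adjusted p = 0.038) and Cd74 of 1.45 ± 0.19 (SE, 95% interval 1.01 to 1.89, adjusted p = 0.0498). H2-Aa at 2.06, H2-Eb1 at 2.55, H2-DMb1 at 2.19 and H2-DMa at 0.70 did not pass (adjusted p = 0.0732, 0.0994, 0.157 and 0.287). The standard error of H2-Aa was 0.32 in this fit and 1.08 without the covariate. The covariate covers Lyz2 alone, and other myeloid markers did not all follow it across libraries (below). The adjusted p of H2-Ab1 ranged from 0.038 to 0.806 over its 16 alternatives and that of Cd74 from 0.0498 to 0.579, and the covariate fit was the 1 alternative in which either passed. In the remaining alternatives limma called 0 members. It called 0.00388% of all genes with no filter on low values, 0.466% with 1 TPM required in all 6 libraries, 0.222% with a pseudocount of 0.1, 0.313% after quantile normalization, 0.247% with equal medians and 0.0329% without the mean-variance trend. It called 1.77% without both dated libraries. With 1 library left out it called 0% (sufficient A1 or B1), 0.193% (sufficient dated), 0.119% (deficient C1), 0.00851% (deficient D) and 1.08% (deficient dated).

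**Figure D3:**
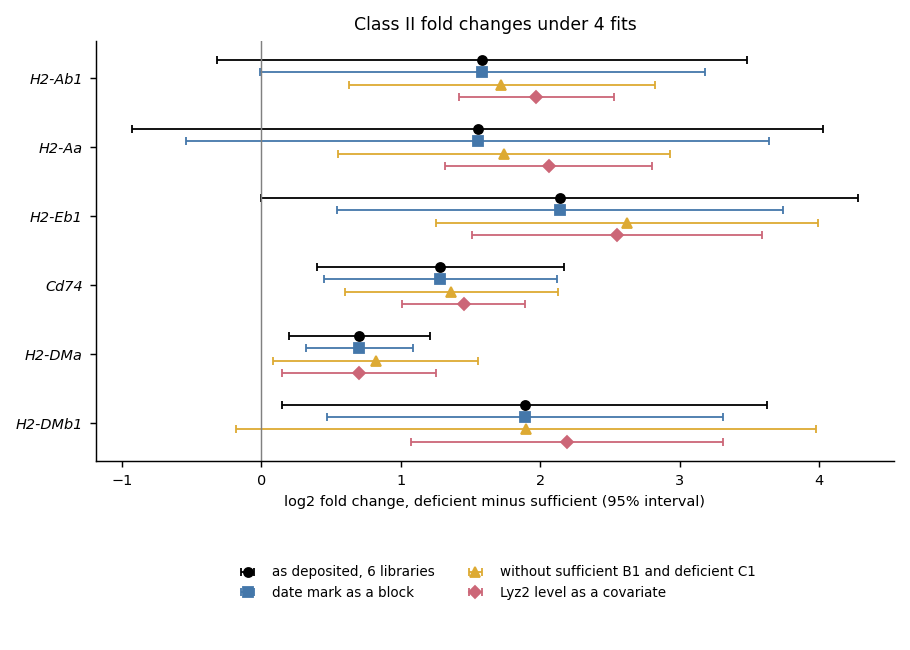
Difference in log2(TPM + 1), deficient less sufficient, of each tested member with its 95% interval in 4 limma fits, marked by colour and symbol. H2-Ab1 lies at 1.58 with all 6 libraries and at 1.97 with the Lyz2 covariate, where its interval is narrowest.

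The difference was larger in the dated pair than among the undated libraries for every tested member. For H2-Ab1 it was 2.70 in the dated pair and 1.02 among undated libraries, for H2-Aa 2.72 and 0.96, for H2-Eb1 3.54 and 1.45, and for Cd74 2.02 and 0.91. H2-DMa had 1.16 and 0.48, and H2-DMb1 3.68 and 0.99. The dated pair is 1 library per group, so this contrast has no test. With the date mark as a block, limma called 0 of the 6 members and 1.97% of all genes. The smallest adjusted p was then 0.0825 for H2-DMa, and 4 of the 6 members, against 19.7% of all genes, had an unadjusted p under 0.05.

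Markers of other class II bearing cells are given for each whole list, and their part in the class II values was not tested beyond the fits above. The 17 myeloid markers summed to 777, 1952 and 484 TPM in sufficient A1, B1 and dated, and to 2483, 555 and 484 TPM in deficient C1, D and dated. Cst3, a protease inhibitor made by many cell types, held 427 to 813 TPM of these sums. The other 16 markers summed to 274, 1139 and 37.4 TPM in the sufficient and 1939, 128 and 32.9 TPM in the deficient libraries in the same order, so the groups overlapped. Of the 17, 13 were tested and 0 were called by limma (0 at an unadjusted p under 0.05), with a median log2 fold change of 0.00. The markers were uneven in deficient D. There 6 of the 17 were listed at 0, among them the macrophage receptor Csf1r and the complement gene C1qa, while Tyrobp and Fcer1g, signalling adaptors of myeloid and natural killer cells, stood at 6.27 and 4.88. Tyrobp was higher there than in any sufficient library (5.93, 5.91 and 2.02 in A1, B1 and dated), and Fcer1g had 5.90, 6.76 and 2.45 in those 3. Adgre1 (F4/80) was listed at 0 in deficient D and dated and in sufficient A1. Cd68, a lysosomal protein of macrophages, had 4.18, 4.91 and 3.44 in sufficient A1, B1 and dated and 6.63, 2.88 and 1.58 in deficient C1, D and dated. Its groups overlapped, with deficient C1 highest and deficient dated lowest.

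The 12 dendritic cell markers summed to 8.12, 22.3 and 4.72 TPM in sufficient A1, B1 and dated and to 14.6, 13.1 and 5.58 TPM in deficient C1, D and dated, with 3 tested and 0 called (0 at an unadjusted p under 0.05). Flt3, a growth factor receptor of dendritic cells, was listed at 0 in all 3 deficient libraries and reached at most 0.81 TPM in the sufficient ones. Fscn1, an actin-bundling protein of mature dendritic cells, differed the other way, with 0.03, 0.41 and 0.11 in the sufficient and 2.72, 1.05 and 0.36 in the deficient libraries, which overlapped. Itgax (CD11c) was highest in deficient C1 at 1.21 and listed at 0 in the deficient dated library. Ccl17, a chemokine of migratory dendritic cells chosen after its values were seen, had 3.46 in sufficient B1, 1.80 in deficient D and 1.67 in the deficient dated library. The list thus lay at its highest in sufficient B1 and at its lowest in the dated libraries, and its groups overlapped.

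The 10 B cell markers summed to 386, 339 and 615 TPM in the sufficient and 584, 677 and 795 TPM in the deficient libraries in the same order, carried mostly by Ighm and Igkc. Of the 4 tested, 0 were called. Igkc, an immunoglobulin light chain, had an unadjusted limma p under 0.05, as did 11.7% of all tested genes. It stood at 5.55, 5.23 and 7.24 in sufficient and 7.43, 7.44 and 7.62 in deficient libraries (log2 fold change 1.49, limma adjusted p = 0.263). Ms4a1 (CD20), a defining B cell gene, was listed at 0 in all 6 libraries, and Cd79a, a B cell receptor chain, lay between 0.14 and 1.33 without separating the groups. Other markers of the list differed: Cd79b, the partner chain of Cd79a, had 3.48, 3.83 and 4.52 in the sufficient and 3.86, 4.96 and 5.54 in the deficient libraries, with overlap (log2 fold change 0.84). Ebf1, a B cell lineage factor also made by stromal cells, was under 1 TPM in 5 libraries and higher without overlap in the deficient ones (0.00, 0.07 and 0.11 against 1.21, 0.78 and 0.36). Ighm, an immunoglobulin heavy chain, lay at 0.43 with overlap. The part of B cell RNA in the class II values was not tested.

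**Figure D4:**
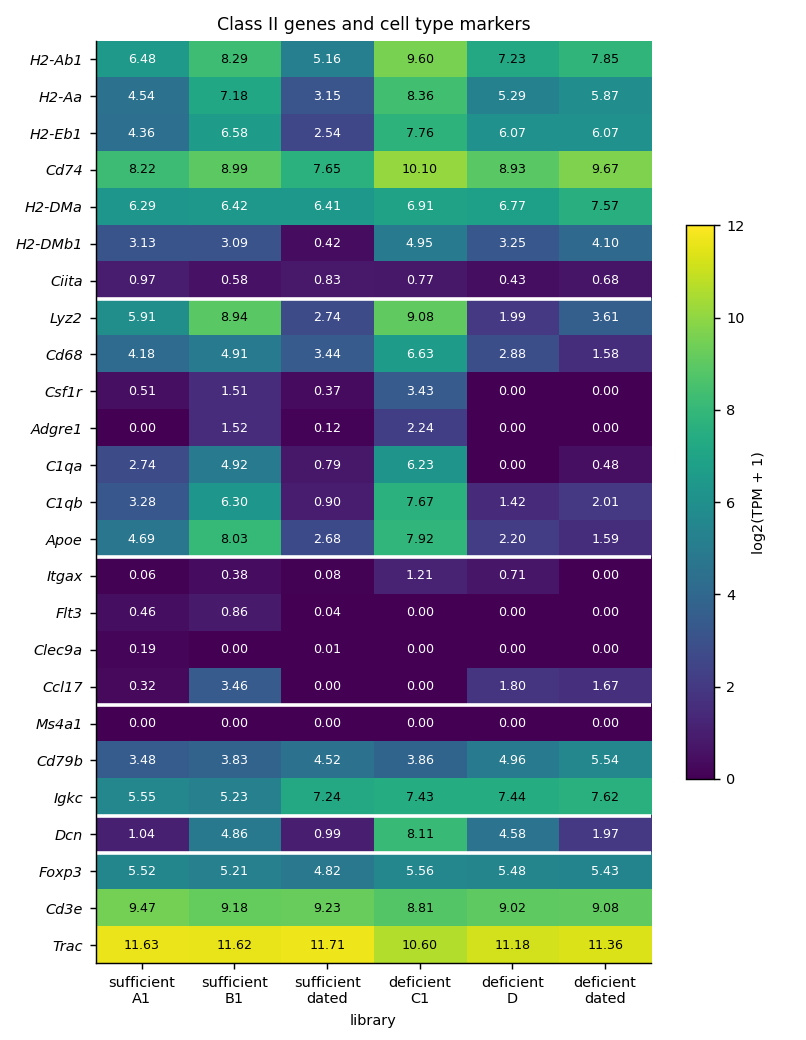
Values in log2(TPM + 1) of the 7 class II genes and of markers of myeloid cells, dendritic cells, B cells, stroma (Dcn) and T cells (rows, split by white lines) in the 6 libraries (columns). Most myeloid rows are highest in deficient C1 and sufficient B1, such as C1qb at 7.67 and 6.30.

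Among 12 other genes of the class II pathway, 8 were tested, 0 were called, 2 had an unadjusted limma p under 0.05, and the median log2 fold change was 0.60. Those 2 were the chains of H2-O, the inhibitor of H2-DM, and the groups did not overlap for either. Of all tested genes, 11.7% had such a p and 17.6% had groups that did not overlap. H2-Oa, its alpha chain, had 3.20, 4.15 and 4.04 in sufficient A1, B1 and dated, and 4.86, 4.72 and 5.51 in deficient C1, D and dated (log2 fold change 1.23 ± 0.33 SE, adjusted p = 0.208). H2-Ob, its beta chain, had 2.82, 2.70 and 1.79, and 3.18, 3.44 and 4.49, in the same order (1.26 ± 0.43 SE, adjusted p = 0.305). For both genes, as for H2-DMa, the highest value was in the deficient dated library and not in deficient C1, the library with the most Lyz2. Ctsb, a lysosomal protease, lay at -0.53 with overlapping groups (adjusted p = 0.45).

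Genes of the proteins with which Ciita works showed no detectable difference in RNA between the groups. All 7 genes of this list were tested (the RFX subunits, the NF-Y subunits and Creb1), 0 were called, 0 had an unadjusted p under 0.05, and the median was 0.01. The smallest p was that of Nfyb, an NF-Y subunit that binds CCAAT, at 0.20 (limma adjusted p = 0.659), followed by Rfx5 at 0.22 and Rfxank at -0.16.

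Genes that induce Ciita, mainly through interferon gamma, differed in direction. All 10 were tested, 0 were called, and the median was 0.03. An unadjusted limma p under 0.05 was found for 4, against 11.7% of all tested genes. Deficient libraries were all higher for 2 genes and all lower for 2, against 10.9% and 6.73% of all tested genes. Irf8, an interferon regulatory factor of myeloid and lymphoid cells, had 6.26, 6.31 and 5.48 in sufficient A1, B1 and dated, and 4.88, 4.99 and 4.15 in deficient C1, D and dated. Every deficient library was below every sufficient one. The direction was opposite to that of the 6 tested members, but not to that of Ciita (-0.17). The log2 fold change of Irf8, -1.35 (limma adjusted p = 0.152), was called in the fit blocked on the date mark (limma adjusted p = 0.00963) and without both dated libraries (0.0182). Those were the fits that called the most genes over the whole table, 1.97% and 1.77%. In the other alternatives Irf8 was not called (limma adjusted p = 0.0514 to 0.645). Ifng, the cytokine itself, was lower without overlap at -1.50 (adjusted p = 0.218), from 5.38, 7.13 and 6.22 to 4.88, 4.98 and 4.38. Ifngr1, its receptor's ligand-binding chain, was higher without overlap at 0.58 (adjusted p = 0.194), from 10.58, 10.37 and 10.33 to 10.82, 11.22 and 11.00.

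Partner genes of antigen presentation numbered 7, all tested, with 0 called and a median of 0.46. An unadjusted limma p under 0.05 was found for 3, against 11.7% of all tested genes. Deficient libraries were all higher for 3 genes and all lower for 1, against 10.9% and 6.73% of all tested genes. Cd40, the receptor through which T cells activate presenting cells, had 1.67, 0.34 and 0.98 in sufficient A1, B1 and dated, and 2.48, 2.59 and 2.91 in deficient C1, D and dated. The groups did not overlap, and the log2 fold change of 1.66 did not pass (adjusted p = 0.153). Cd80, a ligand of CD28 and Ctla4, had 0.68 (adjusted p = 0.387) and Pdcd1lg2, a ligand of PD-1, had -0.53 (adjusted p = 0.355), both without overlap.

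**Figure D5:**
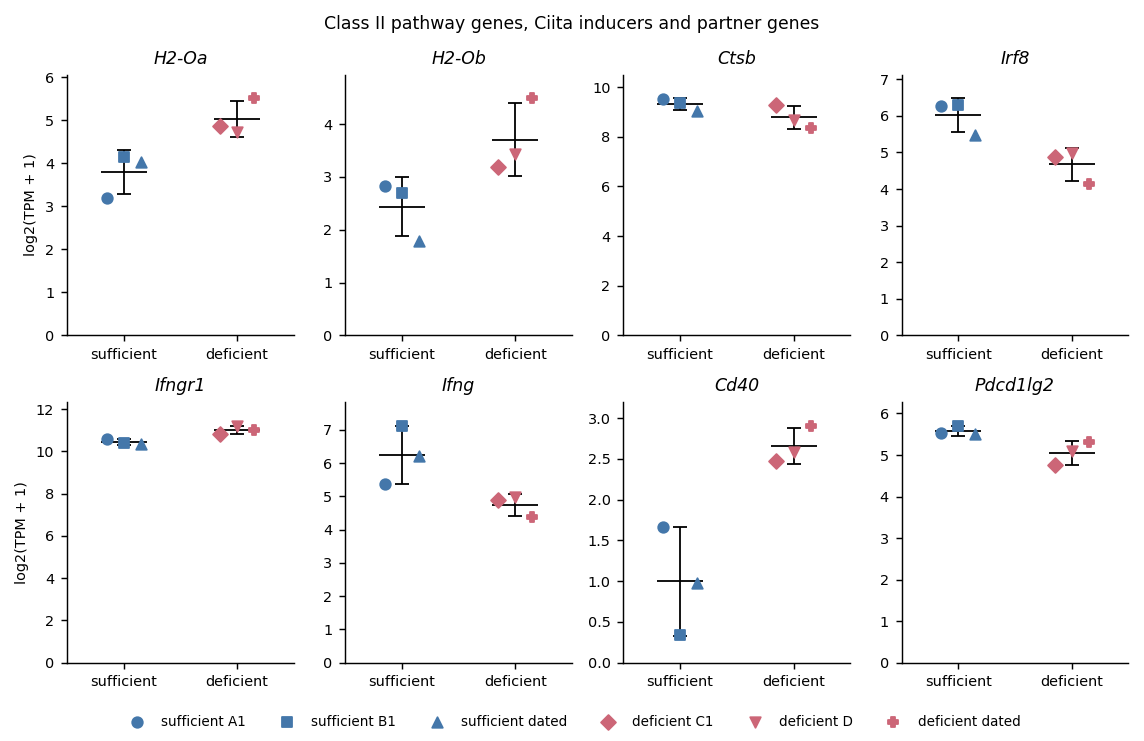
Values in log2(TPM + 1) of 8 genes around the class II pathway, 1 point per library with group mean and SD (n = 3) in black; none was called with all 6 libraries. H2-Oa and H2-Ob are higher and Irf8, Ifng and Pdcd1lg2 lower in every deficient library, and Ctsb overlaps.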

How the data were processed

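RNA libraries of sorted tumour Treg cells (3 Tim-3 sufficient, 3 deficient) were made with Nextera XT and read as 75 bp pairs, per the labels' protocols. STAR, RSEM and limma, with GRCm38 and mm10, are named per the submitters' processing notes, without versions. The authors deposited log2 values: back-calculated, each library summed to between 999999 and 1000001, so they are log2(TPM + 1), and counts and depth are unknown. All 55450 identifiers matched GENCODE mouse release 21 on GRCm38, and 27 altered symbols were restored. Columns showed a library's group but not its replicate number.

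Testing used limma 3.58.1 (R 4.3.3; mean-variance trend, no covariate, two-sided, Benjamini-Hochberg over all tested genes, called under 0.05) on genes that reached 1 TPM in 3 or more libraries. The script was checked on simulated data. Fold changes are differences of log2(TPM + 1) and understate low genes. The members and lists were chosen with earlier results of these data known. Named genes were the members, Lyz2, set markers per list the 3 of smallest p, and the 8 genes most like the members' mean profile, predicted genes left out. H2-Ea-ps, H2-DMb2, H2-Eb2, Adgre1, C1qa, Ms4a1, Igkc, Ighm, Krt8, Krt19, Cst3, Tyrobp, Fcer1g, Fscn1, Cd79b, Ebf1, Cd8a and Cd8b1 were named in addition, after their values were seen, as were the markers that the heat map adds. The values of 1 set marker are not reported here. Alternatives covered the filter, pseudocount, scaling, variance model, date block and libraries left out. The fits without sufficient B1 and deficient C1 and with Lyz2 as a covariate were added after the data were seen. Computation also used Python 3.11.15, pandas 2.3.3 and matplotlib 3.10.9.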

Additional observations from a re-analysis of the deposited data

How the results depend on the processing

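No paired analysis was possible because the column names carry no replicate number of the labels. The log2 fold changes of the 6 tested members stayed positive in all alternatives that could be computed. Leaving out 1 library at a time gave 0.84 to 2.41 for H2-Ab1, 0.63 to 2.66 for H2-Aa, 1.17 to 3.19 for H2-Eb1, 0.96 to 1.63 for Cd74, 0.46 to 0.86 for H2-DMa, 0.99 to 2.35 for H2-DMb1 and -0.28 to -0.07 for Ciita. The lowest values of H2-Ab1, H2-Eb1, Cd74 and H2-DMb1 came without the sufficient dated library. With all 6 libraries H2-Ab1 had 1.58 and H2-Eb1 2.14, so the size of their difference depended much on that library. The lowest value of H2-Aa came without deficient C1 and that of H2-DMa without deficient dated. H2-DMb1 did not reach 1 TPM in all 6 libraries and has no value under that filter. Ciita entered a test with no filter on low values alone, where it was not called, and moved from -0.17 to -0.38 with a pseudocount of 0.1. The count of members called was 0 in every alternative except the Lyz2 covariate, where it was 2 (H2-Ab1 at 1.97 and Cd74 at 1.45).

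The count of called genes over the whole table was 25. It was 1 with no filter on low values, 47 with 1 TPM required in all 6 libraries, 38 with quantile normalization, 4 without the mean-variance trend, 215 without both dated libraries and 240 with the date mark as a block. It was 0 without sufficient B1 and deficient C1 (748 at an unadjusted limma p under 0.05). Leaving out 1 library gave 0 to 128: 0 without sufficient A1 (1127 unadjusted), 0 without sufficient B1 (960 unadjusted), 14 without deficient C1, 1 without deficient D, 128 without deficient dated and 23 without sufficient dated. Equal library medians lowered each fold change by about 0.13, and the called split of 16 higher and 9 lower then became 11 and 19 (quantile normalization 16 and 22).

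With 1 library left out, Lyz2 ran from -3.07 to 0.56, positive without sufficient B1 (0.56) and deficient D (0.48). Cd68 ran from -1.95 to 0.57, positive without deficient dated, and was 0.21 without both dated libraries. Rfxank ran from -0.27 to 0.04, positive without deficient C1. The cause was not tested. TPM keeps no depth, so no detection limit can be given for values listed at 0.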

Other observations

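Markers of cells that bear no class II in the usual case also differed between libraries. Dcn, a matrix proteoglycan of fibroblasts chosen after its values were seen, had 1.04, 4.86 and 0.99 in sufficient A1, B1 and dated, and 8.11, 4.58 and 1.97 in deficient C1, D and dated. The 8 stroma and endothelium markers summed to 309 TPM in deficient C1 and to between 20.7 and 63 TPM in the other 5 libraries. The 4 neutrophil markers reached at most 2.37 TPM in sum, in deficient C1. The 5 epithelium and tumour markers summed to between 9.8 and 24.6 TPM, with Krt8 and Krt19 listed at 0 in all 6 libraries. The CD8 T cell genes Cd8a and Cd8b1 summed to between 11.3 and 42.5 TPM, highest in deficient D.

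The 9 T and Treg markers summed to 9606, 9222 and 8625 TPM in sufficient A1, B1 and dated, and to 5579, 7578 and 7704 TPM in deficient C1, D and dated. Every deficient sum lay below every sufficient one, and how this bears on the class II values was not tested. Of the 9 markers, 0 were called by limma, and the median log2 fold change was -0.31. An unadjusted limma p under 0.05 was found for 2, Trac (-0.61) and Cd3d (-0.51), against 11.7% of all tested genes. The groups did not overlap for 3 markers, all lower in deficient libraries, as were 6.73% of all tested genes. Cd3e lay at -0.32 with no overlap between the groups (limma adjusted p = 0.435). Foxp3 lay at 0.31 with overlap (adjusted p = 0.597).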
